A study of Arabidopsis thaliana with 22 samples.

Results

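The 4 transcripts described here are grouped as genes of known, predicted or possible plastid proteins. They are CGLD27 (At5g67370), PGR5-LIKE A (At4g22890), DGAT3 (At1g48300) and the DnaJ-like gene AT2G42750, followed in Arabidopsis roots after Fe was withdrawn. They were selected from the transcripts that the study listed as raised without Fe, CGLD27 among the strongly raised ones and the other three among the weakly raised ones, so the difference between media at 6 and 24 h is what chose them and is described here without a test. They are 4 of 22746 probe sets, and each is represented by 1 probe set. Roots of Landsberg erecta plants from hydroponic culture were moved, shortly after the start of the light period, to medium without Fe (Fe-deficient) or to medium with Fe-EDTA (Fe-sufficient), and both sets of roots were first rinsed with EDTA. They were harvested 0, 1, 6 and 24 h after transfer, so that the 24 h roots were taken at the clock hour of the 0 h roots and the 6 h roots were not. RNA of pooled roots was hybridised to the ATH1 array, and 22 arrays were used, 3 per medium and harvest up to 6 h but 2 per medium at 24 h. The methods say that Fe-deficient batches were used only where ferric chelate reductase activity of the roots had risen at 24 h, so the Fe-deficient roots are a set selected for that response. A further harvest between 0 and 1 h was not used here.

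Plastids of roots are mostly non-photosynthetic, and they store Fe in ferritin, assemble iron-sulfur clusters and carry the early steps of tetrapyrrole synthesis. CGLD27 belongs to a group of proteins conserved in the green lineage and diatoms, is predicted to be in the plastid and has no established function. PGR5-LIKE A, also called PGRL1A, is a thylakoid membrane protein that works with PGR5 in cyclic electron flow around photosystem I. DGAT3 is a soluble diacylglycerol acyltransferase, an enzyme of the last step of triacylglycerol synthesis, which carries an iron-sulfur cluster and has been placed in the cytosol or the plastid. AT2G42750 (DJC77) encodes a J-domain protein, and J proteins stimulate the ATPase of Hsp70 chaperones.

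Across the arrays the mean intensity without the lowest and highest 2% of probe sets was 500.04 to 500.05 and the median was 181.1 to 210.3, so the deposited intensities had been scaled alike. Arrays correlated with each other by 0.918 to 0.970, and no 2 held identical values. The labels call the arrays biological replicates and the methods describe independent experiments with pooled plants, without saying which array came from which experiment. Intensities were compared between groups for one probe set at a time. Different probe sets were also set beside each other by brightness, spread, size of change and correlation, and the intensities of green tissue markers were summed. In bulk root RNA, more cells with a transcript and more transcript per cell cannot be told apart. Of 10 root markers 2 could be named on the array: BGLU23, an abundant root glucosidase, lay between 8878.5 and 16883.5 on the 22 arrays, and EXPA7, a root hair expansin, between 90.0 and 577.6.

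CGLD27 was more abundant in Fe-deficient roots on every array at 6 and 24 h. At 6 h its intensity was 215.4, 506.4 and 498.6 in Fe-deficient roots, against 81.8, 99.9 and 54.8 in Fe-sufficient roots. At 24 h it was 408.8 and 663.6 in Fe-deficient roots, against 141.9 and 50.9 in Fe-sufficient roots. The ranges of the media did not overlap at either time. The change was 4.90-fold at 6 h (log2 2.29, SE 0.99, n = 3 for each medium) and 6.06-fold at 24 h (log2 2.60, SE 1.22, n = 2 for each medium), which ranked 23 and 34 among all 22746 probe sets. The study also measured CGLD27 by semi-quantitative RT-PCR, apart from the arrays. By that method it describes the response of CGLD27 to Fe deficiency as mostly weak and not clear every time. The arrays alone therefore carry the size of the change given here. At 0 h CGLD27 was at 47.1, 307.5 and 46.9 in Fe-deficient roots and at 23.0, 180.2 and 109.1 in Fe-sufficient roots. At 1 h it was at 22.7, 150.7 and 139.3 in Fe-deficient roots and at 6.3, 78.6 and 43.2 in Fe-sufficient roots. The media overlapped at both of these times, with log2 changes of 0.19 and 1.43. Leaving out 1 array moved the change at 0 h between -0.70 (Fe-deficient replicate 2 left out) and 0.80 (Fe-sufficient replicate 2 left out), and it was -0.66 with Fe-sufficient replicate 1 left out. At 1 h it moved between 0.42 (Fe-sufficient replicate 1 left out) and 2.31 (Fe-deficient replicate 1 left out), and it was 2.15 with Fe-sufficient replicate 2 left out.

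The arrays of CGLD27 varied more than those of the other three transcripts. Its residual SD within groups was 1.29 in log2, against 0.23 for PGR5-LIKE A, 0.25 for DGAT3 and 0.26 for AT2G42750, and a median of 0.38 over all probe sets. CGLD27 was also the dimmest of the 4, brighter on average than 39.5% of all probe sets. With 32 instead of 1 added to the intensities before log2, its change was 1.9 at 6 h and 2.2 at 24 h. Replicate 2 had the highest intensity of CGLD27 in 6 of the 6 groups of 3 arrays, and replicate 1 had the lowest in 4 of them. When arrays were compared by replicate number, CGLD27 was higher in the Fe-deficient array of 3 of 3 pairs at 6 h, by 1.39 to 3.16 in log2. At 1 h it was higher in 3 of 3 pairs, by 0.93 to 1.70, where 1.70 stands for intensities of 22.7 and 6.3 in replicate 1. At 0 h it was higher in 2 of 3 pairs, with a range of -1.20 to 1.00. The share of all probe sets with such pairs was not counted, and at 6 h the direction of every pair follows from groups that do not overlap. The SE of the change was 0.99 at 0, 1 and 6 h without the replicate number in the model and 0.81 with the replicate number as a block.

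PGR5-LIKE A had a smaller difference between media, which was larger at 24 h than at 6 h in these means. At 6 h its intensity was 373.1, 391.1 and 475.1 in Fe-deficient roots, against 335.7, 253.5 and 290.5 in Fe-sufficient roots. At 24 h it was 409.4 and 554.7 in Fe-deficient roots, against 292.0 and 206.8 in Fe-sufficient roots. The groups did not overlap at either time, and the change was 1.41-fold at 6 h (log2 0.49, SE 0.19) and 1.94-fold at 24 h (log2 0.95, SE 0.24). The value at 6 h was below 1.5-fold. At 0 and 1 h PGR5-LIKE A was at 231.4 to 292.1 in Fe-deficient roots and at 220.6 to 331.6 in Fe-sufficient roots, with log2 changes of -0.02 and -0.24. Leaving out single arrays of 24 h moved the change at 24 h between 0.70 and 1.20 in log2.

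DGAT3, the brightest of these probe sets relative to the array (brighter than 93.3% of all probe sets on average), had a similar difference between media at 6 and 24 h. Its intensity at 6 h was 4223.6, 3381.3 and 3866.5 in Fe-deficient roots, against 2744.9, 1946.5 and 1972.3 in Fe-sufficient roots. At 24 h it was 3136.6 and 3891.4 in Fe-deficient roots, against 2042.3 and 1824.4 in Fe-sufficient roots. Every Fe-deficient array lay above every Fe-sufficient array at both times, by 1.74-fold on average at 6 h (log2 0.80, SE 0.21) and 1.81-fold at 24 h (log2 0.86, SE 0.26). DGAT3 was at 2889.1, 2001.6 and 1557.6 in Fe-deficient roots at 0 h, against 1517.4, 1893.4 and 1478.7 in Fe-sufficient roots, so that the groups overlapped at a log2 change of 0.36. At 1 h it was at 1337.1 to 1733.9 in Fe-deficient roots and 1281.4 to 1620.0 in Fe-sufficient roots, with a log2 change of 0.07.

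AT2G42750 was higher in Fe-deficient roots at 6 and 24 h, and its Fe-sufficient roots at 6 h had the lowest mean of its 8 groups. At 6 h its intensity was 209.3, 277.7 and 299.5 in Fe-deficient roots, against 121.8, 116.5 and 125.4 in Fe-sufficient roots. At 24 h it was 375.9 and 402.8 in Fe-deficient roots, against 202.8 and 227.6 in Fe-sufficient roots. The groups did not overlap, and the change was 2.13-fold at 6 h (log2 1.09, SE 0.22) and 1.81-fold at 24 h (log2 0.85, SE 0.27). At 0 and 1 h the intensities of both media overlapped, from 150.8 to 217.2 in Fe-deficient roots and from 115.7 to 220.7 in Fe-sufficient roots, with log2 changes of 0.15 and -0.06.

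**Figure D1:**
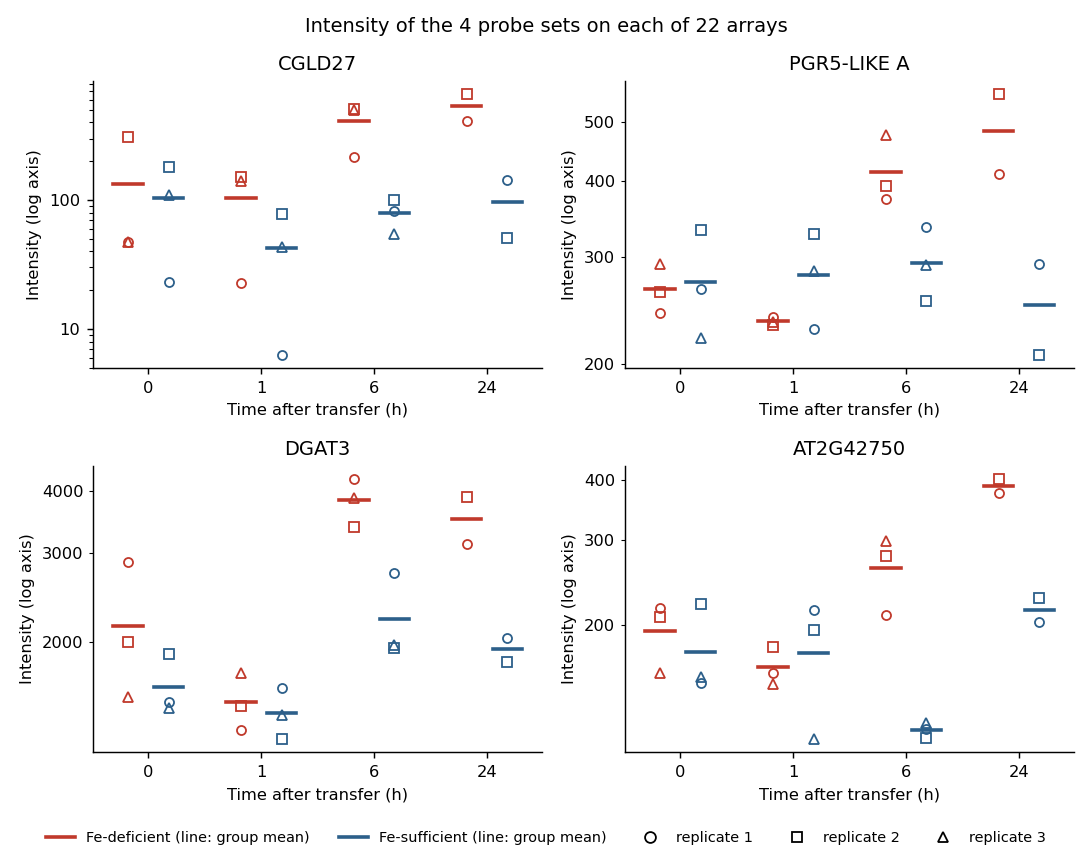
Intensity of each probe set (log axis) on each of the 22 arrays against the time after transfer in h, with Fe-deficient arrays in red left of Fe-sufficient arrays in blue, replicate numbers as symbols and group means as lines. At 6 and 24 h all red symbols lie above all blue ones in each panel, and the spread of CGLD27 is the widest.

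Counted over the group, all 4 transcripts had every Fe-deficient array above every Fe-sufficient one at 6 h, where 2.75% of all probe sets had, and all 4 at 24 h, where 12.1% had. A change above 1.5-fold was reached by 3 of 4 at 6 h, against 6.63% of all probe sets, and by 4 of 4 at 24 h, against 7.27%. Because the transcripts were chosen for this contrast, these counts describe them and test nothing. The median change over all probe sets was -0.02 in log2 at 6 h and 0.00 at 24 h.

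**Figure D2:**
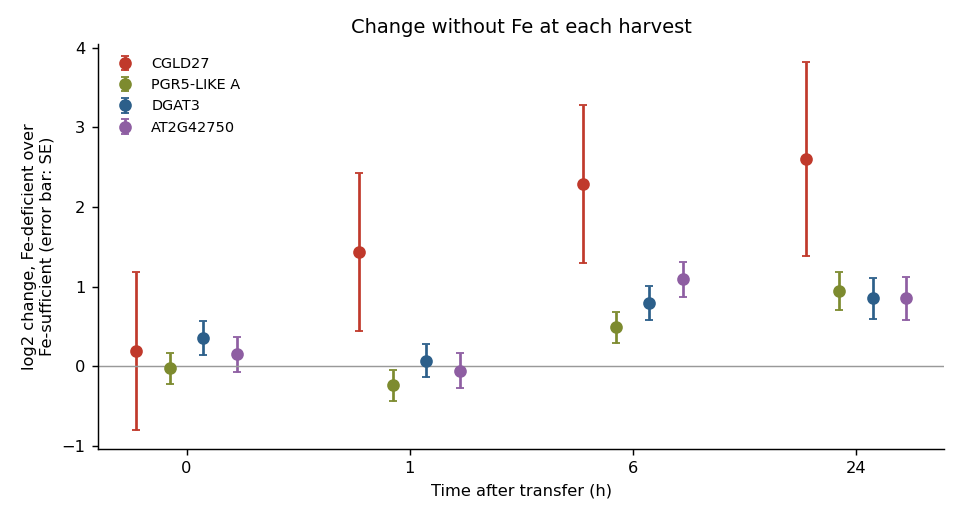
Log2 change of each transcript, Fe-deficient minus Fe-sufficient, at 0, 1, 6 and 24 h with the SE of the fit as bars and 1 colour per transcript. All 4 changes are above 0 at 6 and 24 h, from 0.49 for PGR5-LIKE A at 6 h to 2.60 for CGLD27 at 24 h.

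Differences from 0 h within each medium are given as a description, since the arrays of these times also entered the contrast and the clustering that led to the choice of the transcripts. Relative to 0 h, CGLD27 differed by 2.09 at 6 h and 2.55 at 24 h (log2) in Fe-deficient roots, and by -0.01 and 0.14 in Fe-sufficient roots. PGR5-LIKE A differed by 0.63 and 0.85 in Fe-deficient roots, against 0.12 and -0.13 in Fe-sufficient roots. DGAT3 differed from 0 h by 0.87 in Fe-deficient roots and 0.44 in Fe-sufficient roots at 6 h, and at 24 h by 0.75 in Fe-deficient roots and 0.25 in Fe-sufficient roots. AT2G42750 differed by 0.42 in Fe-deficient roots and -0.51 in Fe-sufficient roots at 6 h, and by 1.01 in Fe-deficient roots and 0.31 in Fe-sufficient roots at 24 h.

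In Fe-sufficient roots AT2G42750 was at 121.2 ± 4.48 at 6 h and 176.1 ± 38.7 at 0 h (SD, n = 3 each), and its 6 h arrays all lay below its 0 h arrays, as did those of 4.74% of all probe sets. DGAT3 in Fe-sufficient roots was at 2221 ± 453.7 at 6 h and 1630 ± 229.1 at 0 h (SD, n = 3 each), and its 6 h arrays all lay above its 0 h arrays, as did those of 6.47% of all probe sets. Over the whole array, limma with Benjamini-Hochberg adjustment was run on 1, 6 and 24 h against 0 h in Fe-sufficient roots. It called 2, 1 and 0 probe sets at these times, and the 4 transcripts, whose choice used these arrays, are not judged by it. The 1 called at 6 h was higher and made 0.0044% of all probe sets. In the same limma fit 995, 1395 and 815 had an unadjusted p under 0.05.

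In the order of the 8 groups by mean intensity, the Fe-deficient roots of 6 and 24 h held the first and second places for all 4 transcripts, with 24 h first for CGLD27, PGR5-LIKE A and AT2G42750 and 6 h first for DGAT3. For PGR5-LIKE A and DGAT3 the arrays of those places did not overlap with the arrays of the group in the third place, and the groups below overlapped with their neighbours. For AT2G42750 the Fe-deficient roots at 24 h stood clear of those at 6 h, and the Fe-sufficient roots at 6 h, in the last place, stood clear of the Fe-deficient roots at 1 h just above them. For CGLD27 each group overlapped with its neighbours. Because the transcripts were chosen for being raised in Fe-deficient roots at 6 and 24 h, these places describe them and test nothing. The share of all probe sets with the same first places was not counted.

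Transcripts whose pattern was most like each of these were sought among 6044 named probe sets of at least median brightness, by Pearson's r of log2 intensity over the 22 arrays, which share groups, so that r is a description. Of the 6044, 28 were named through the study's tables of Fe-responsive transcripts alone, while other probe sets without an array name were not candidates. The pool was therefore enriched in Fe-responsive transcripts, and of the 17 different genes found, 8 had their name from those tables and 12 are listed in them. For CGLD27 they were FRO3 (a ferric reductase of the mitochondrial membrane), AT1G74770 (the BRUTUS-like protein BTSL1), bHLH39 (a transcription factor of the Fe deficiency response), MTPA2 (a vacuolar Zn transporter) and AT5G38820 (a member of an amino acid transporter family), with r of 0.946, 0.935, 0.933, 0.932 and 0.893. For PGR5-LIKE A they were NRAMP4 (a vacuolar metal exporter), FRO3, bHLH39, OPT3 (an oligopeptide transporter of the phloem) and DGAT3, with r of 0.807 to 0.742. For DGAT3 they were ORG1 (a kinase-like protein), AT5G05250, OPT3, AT5G40250 and AT5G54530, with r of 0.916 to 0.786. For AT2G42750 they were AT3G56360, IREG2 (a vacuolar metal transporter), AT1G73600, AT1G60610 and AT5G19970, with r of 0.826 to 0.763. The 4 transcripts correlated with each other by 0.577 to 0.742 over the 22 arrays. All 4 were chosen for being raised without Fe at 6 and 24 h. That choice by itself favours a positive r between them and with other Fe-responsive transcripts.

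When the group means were taken out, leaving how each array deviated from the others of its group, CGLD27 remained correlated with many of the strongly raised transcripts. The deviations of CGLD27 correlated with those of FRO3 by 0.929, of bHLH39 by 0.926 and of MTPA2 by 0.921 over 22 arrays. After removal of 8 group means these hold 14 degrees of freedom, and they partly follow the replicate number. At 0 and 1 h the deviations of replicate 1 were -2.015 to -0.892 for CGLD27 and -0.798 to -0.609 for FRO3. How much of r goes with the replicate number was not tested. Among 23 other probe sets on the study's list of strongly raised transcripts, 16 had an r of deviations above 0.5 with CGLD27 (69.6%), against 15.7% of all 22745 other probe sets. On the study's other lists the share for CGLD27 was 31.2% and 18.2% of the weakly raised transcripts of the first and second list, and 12.5% of the lowered ones. With the strongly raised list the share was 1 of 24 for PGR5-LIKE A (3.28% of all probe sets), 2 of 24 for DGAT3 (3.33%) and 1 of 24 for AT2G42750 (3.37%). Among the 4 transcripts themselves the deviations correlated by 0.04 to 0.42, below the 0.577 to 0.742 found with the group means left in.

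**Figure D3:**
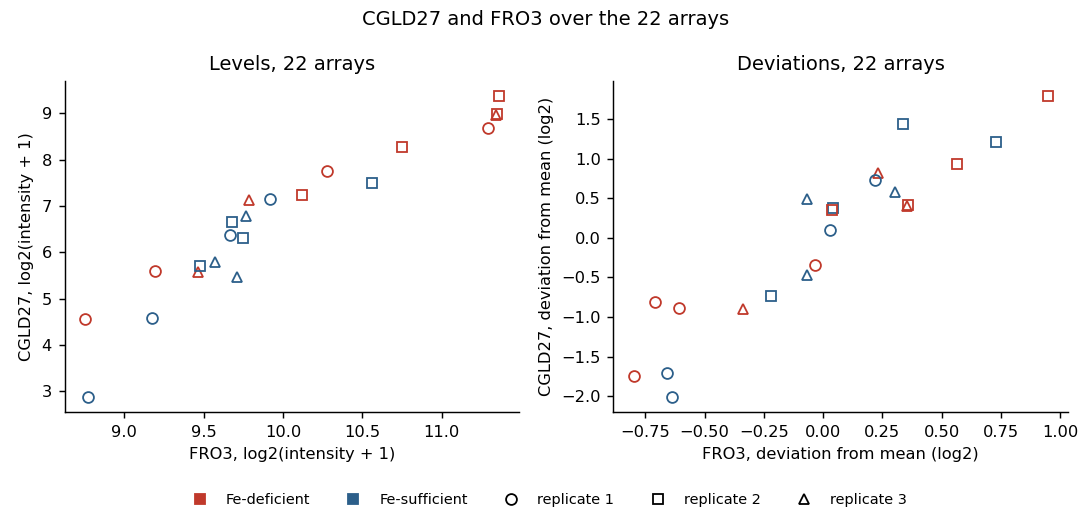
CGLD27 (vertical axis) against FRO3 (horizontal axis) on the 22 arrays, both as log2 of intensity plus 1 (left) and as deviations from the mean of their own group (right), with Fe-deficient arrays in red, Fe-sufficient arrays in blue and replicate numbers as symbols. CGLD27 was high where FRO3 was high in both panels, with r of 0.946 and 0.929.

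Genes with related roles in the plastid were compared from 7 lists of 118 genes, of which 28 could be named on the array; a gene was called where its change exceeded 1.5-fold with an unadjusted p under 0.05. At 6 h 0 were called higher and 5 lower without Fe, and at 24 h 1 was called higher and 3 lower. Of all probe sets 0.976% were called higher and 1.15% lower at 6 h, and 0.765% higher and 0.703% lower at 24 h. The counts cannot be read against these shares, because FER1, FER3, FER4 and IREG3 could be named only through the study's tables of changed transcripts. Of the other 24 genes, named through the array annotation, 0 were called higher and 2 lower at 6 h, and 0 were called at 24 h. No call passed the Benjamini-Hochberg adjustment in limma (adjusted p of 0.491 for FER1 at 6 h and 1 for each of the others). Of the 14 genes on the list of plastid J-domain proteins and Hsp70 chaperones none could be named on the array, so AT2G42750 had no relatives to be set beside.

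Cyclic electron flow, the role of PGR5-LIKE A, was represented by 4 of 20 listed genes. PGRL1B, the close relative of PGR5-LIKE A, was at 80.1 ± 23.4 in Fe-deficient roots and 85.5 ± 16.2 in Fe-sufficient roots at 6 h (SD, n = 3 each), a log2 change of -0.12 (SE 0.41). At 24 h PGRL1B was at 92.8 ± 25.1 in Fe-deficient roots and 69.0 ± 30.3 in Fe-sufficient roots (SD, n = 2 each), a log2 change of 0.47 (SE 0.50), and it was called at neither time. NDHL, a subunit of the chloroplast NADH dehydrogenase-like complex, was called lower at 6 h at 13.6 ± 8.35 in Fe-deficient roots and 32.6 ± 4.64 in Fe-sufficient roots (SD, n = 3 each). It is dim, its log2 changes at 0 and 1 h were -1.46 and 2.24, and the call was lost when any 1 of 5 of the 6 arrays was left out (log2 -1.46 to -1.04; Fe-deficient replicates 1 and 2 and the 3 Fe-sufficient replicates). Its call was also lost with a pseudocount of 32.

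Triacylglycerol synthesis, the role of DGAT3, was represented by 5 of 17 listed genes and had none called at 6 or 24 h. The lipid droplet proteins LDAP1 and LDAP3 and the lipase SDP1 had log2 changes of -0.07 to 0.07 at both times. The dim WSD1, an enzyme of wax ester synthesis, had -0.91 at 6 h and 0.96 at 24 h, and the acyltransferase PDAT2, also dim, had -0.18 and -0.27. Iron-sulfur cluster assembly in the plastid had 4 of 15 genes named (HCF101, IBA57_2, NFS2 and SUFE2) and none called, and ferredoxins and their reductases 2 of 15 (FTRB and TROL) and none called. Among so few genes, no calls on these 3 lists is near the shares called over all probe sets. Of the tetrapyrrole pathway 8 of 26 were named, and PORB, a protochlorophyllide oxidoreductase, was called lower at 6 h at 12.0 ± 8.01 in Fe-deficient roots and 52.7 ± 12.6 in Fe-sufficient roots (SD, n = 3 each). PORB is dim (mean log2 4.17), and its log2 changes were -1.06 at 0 h, 0.27 at 1 h and 0.08 at 24 h. Its call at 6 h was kept when any 1 array was left out (log2 -2.66 to -1.83).

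Of 11 listed genes of Fe storage and transport in the plastid 5 were named, of which the 3 ferritin genes were called lower without Fe. The ferritin FER1 was at 1659.1, 1191.7 and 823.7 in Fe-deficient roots at 6 h, against 3322.6, 3615.7 and 3903.5 in Fe-sufficient roots, and at 24 h at 1041.0 and 703.2 in Fe-deficient roots, against 3243.9 and 2614.6 in Fe-sufficient roots. FER1 (log2 -1.62 at 6 h and -1.77 at 24 h), FER3 (-0.65 and -0.79) and FER4 (-0.71 and -1.05) were called lower at both times. IREG3, a ferroportin-related protein of the plastid, was called higher at 24 h, at 283.9 and 248.0 in Fe-deficient roots, against 201.4 and 123.8 in Fe-sufficient roots (log2 0.74, SE 0.30). MFL1, a mitoferrin-like carrier of the plastid, was called at neither time (log2 -0.09 at 6 h and 0.17 at 24 h). The 3 ferritin genes and IREG3 are on lists that the study chose from these samples, so their direction is not independent evidence. IREG3 lost its call without Fe-sufficient replicate 2 (log2 0.40) or Fe-deficient replicate 1 (0.65) of 24 h. FER3 lost its call at 24 h without Fe-sufficient replicate 1 (-0.63) or Fe-deficient replicate 1 (-0.66) and at 6 h without Fe-deficient replicate 3 (-0.45), and FER4 at 24 h without Fe-sufficient replicate 1 (-0.62). The calls of IREG3 and FER4 at 24 h were also lost when the 2 compared groups were fitted alone.

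**Figure D4:**
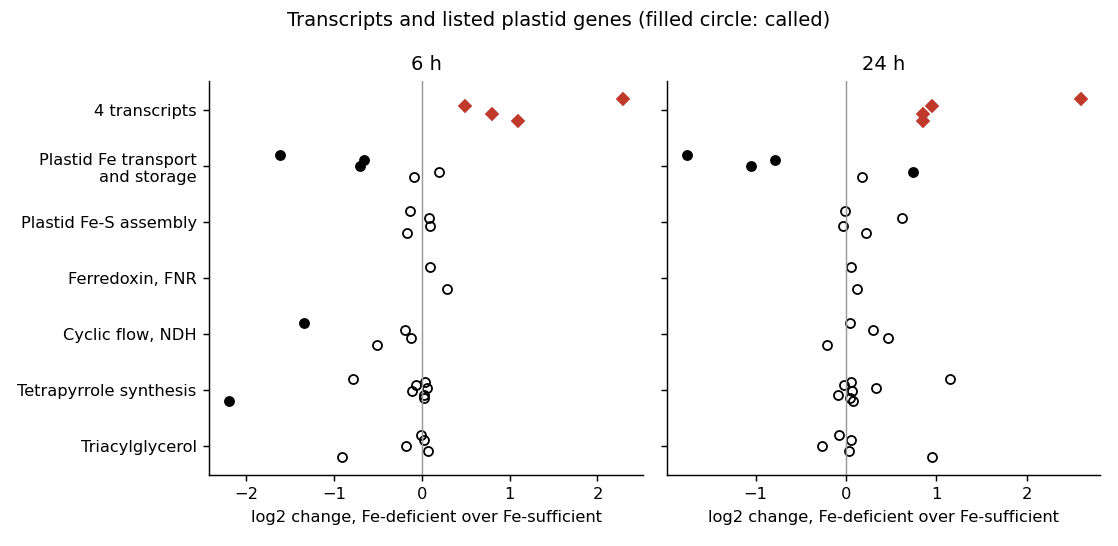
Log2 change, Fe-deficient minus Fe-sufficient, of the 4 transcripts (red diamonds) and the 28 listed genes (circles, 1 row per list, filled where called) at 6 h (left) and 24 h (right). The 3 called ferritin genes lie left of 0 and the 4 transcripts right of it at both times.

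Green tissue markers, which would report shoot tissue or photosynthetic cells, were dim, and at 24 h their sum was lower in Fe-deficient roots. Of 22 markers 6 could be named, with medians of 17.1 to 73.5. Their summed intensity per array was 202.0 to 371.6 in Fe-deficient roots and 257.1 to 425.0 in Fe-sufficient roots at 6 h. At 24 h it was 116.0 to 189.0 in Fe-deficient roots and 286.6 to 352.0 in Fe-sufficient roots, and GAPA (log2 -1.53) and PSBW (-1.49) of the 6 were called lower, PSBW not without Fe-deficient replicate 2 (-1.10). GAPA, PSBW and LHCB2.2 are on the study's list of lowered transcripts, so their direction is not independent evidence. At 24 h the sum of these 3 was 49.0 to 78.7 in Fe-deficient roots and 185.7 to 223.0 in Fe-sufficient roots, while the sum of PRK, RCA and SBPASE was 67.0 to 110.3 in Fe-deficient roots and 100.9 to 129.0 in Fe-sufficient roots, which overlap. At 0 h the sum was 194.7 to 282.8 in Fe-deficient roots and 175.4 to 271.7 in Fe-sufficient roots. The nearest 3 coding genes on each side of each transcript made 24, of which 10 could be named, and 0 were called at 6 or 24 h. Of all probe sets 0.976% were called higher and 1.15% lower at 6 h, and 0.765% and 0.703% at 24 h. A count of 0 among 10 is near these shares. The changes of those 10 lay between -0.26 and 0.51 in log2 at 6 h and between -0.27 and 0.26 at 24 h.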

How the data were processed

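Transcript abundance was measured on 22 Affymetrix ATH1 arrays. The intensities that the authors deposited are linear, 1 for every probe set on an array, and share a trimmed mean. Their methods describe probe-level modelling with AffylmGUI, whose output is on the log2 scale, and the program behind the linear intensities is not given in the sources used here. The number of arrays limits the precision. Of 22810 probe sets, 64 controls were left out, 13436 were named through the array annotation, 40 through the study's tables and 9270 were not named. Log2 of intensity plus 1 was modelled with limma 3.58.1 under R 4.3.3 (functions lmFit and eBayes) as 8 groups without a block, with 14 residual degrees of freedom, after a check on simulated data. A gene was called where its change exceeded 1.5-fold with an unadjusted p under 0.05, and Benjamini-Hochberg adjusted values are given too; time in Fe-sufficient roots was called at an adjusted p under 0.05 over all probe sets and is described without a test for the 4 transcripts, whose choice used these arrays. Named genes were the 4 transcripts, every called gene of the lists and, per transcript, the 5 named probe sets of highest r. Alternatives were a pseudocount of 32, quantile normalization, a filter on mean log2 of at least 5, the replicate number as a block, the compared groups alone, and leaving out each array. The transcripts, lists and tests were chosen with earlier results of these data known.

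Replicate numbers come from the labels. Between media, deviations from the group means of equally numbered arrays correlated by 0.12 to 0.45 at 0, 1 and 6 h (9 pairs). Numbers were therefore taken to pair these arrays, although the main fit used no block. At 24 h both pairs gave the same -0.41, since the deviations within a group of 2 arrays mirror each other. Within Fe-sufficient roots, equally numbered arrays of 1 or 6 h and of 0 h correlated by 0.15 to 0.41 (6 pairs). Those of 24 h and 0 h correlated by -0.41 for replicate 1 and -0.24 for replicate 2.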

Additional observations from a re-analysis of the deposited data

How the results depend on the processing

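Of 80 alternative values for the 8 changes of the transcripts at 6 and 24 h, 24 cannot differ from the value reported by construction (replicate block, brightness filter, compared groups alone). Of the other 56, 54 lay within 1 residual SD of it, by the residual SD of the transcript itself. That SD was 1.29 for CGLD27 and 0.23 to 0.26 for the others, so CGLD27 could move further and still count as within. The direction of these values is fixed where groups that do not overlap lose an array. The exceptions were PGR5-LIKE A at 24 h, which ranged from 0.70 to 1.20 in log2 when single arrays were left out. CGLD27 ranged from 2.06 to 2.70 at 6 h and from 1.87 to 3.33 at 24 h when single arrays were left out. Counts over all probe sets depended more on the processing. Called higher at 6 h were 222, but 125 with a pseudocount of 32, 101 with only probe sets of mean log2 of at least 5, and 164 to 335 without single arrays. Called lower at 6 h were 262, then 103, 93 and 212 to 386. Called higher at 24 h were 174, then 93, 74 and 145 to 271, and 356 when only the 2 groups compared were fitted. Called lower at 24 h were 160, then 58, 52 and 113 to 391, and 378 with only the 2 groups. Among the fits without 1 array, the highest count came, for higher at 6 h, without Fe-sufficient replicate 1 (335), for lower at 6 h without Fe-deficient replicate 2 (386), for higher at 24 h without Fe-sufficient replicate 2 (271) and for lower at 24 h without Fe-deficient replicate 1 (391). In Fe-sufficient roots the adjusted calls at 1 h were 2, and 0 with a pseudocount of 32, 1 after quantile normalization, 0 with the filter, 0 with the replicate block, 0 with only the 2 groups, and 0 to 2 without single arrays (1 without replicate 1 of 0 h, 0 without replicates 2 or 3 of either time). At 6 h they were 1, and 0 after quantile normalization, 10 with the filter, 4 with the replicate block, 0 with only the 2 groups and 0 to 9 without single arrays (9 without replicate 2 of 0 h, 0 without any one array of 6 h). At 24 h they were 0 in every alternative run. The cause of these changes was not tested.

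With the replicate block the criterion called 278 higher and 316 lower at 6 h, and 203 higher and 199 lower at 24 h, and it changed no other call of the text. With crossed replicate numbers for the Fe-deficient arrays of 24 h, an alternative chosen after the data were seen, 195 were called higher and 190 lower. Crossing the numbers of the Fe-sufficient arrays of 24 h instead was not run, and which numbers are crossed, if any, was not tested. Groups of 2 arrays at 24 h and the 9270 unnamed probe sets limit these results.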
